A study of Ovis aries with 14 samples.

Results

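Cytosolic ribosomal proteins and the factors that run translation were followed through whole ovaries of Suffolk sheep. Members were taken by gene name from the 3 deposited tables: names starting with RPL or RPS followed by a digit or P, RPSA, names starting with EIF and a digit, and names starting with EEF1 or EEF2, with the RPS6 kinases left out. The rule found 87 genes of the 17323 different genes listed, of which 87 are in the fetal table, 85 in the first adult table, 86 in the second and 85 in every table. By role they comprise 14 proteins of the large ribosomal subunit, 17 of the small subunit, 4 ribosomal protein-like paralogs (RPL3L, RPL10L, RPL26L1 and RPS27L), 36 initiation factors or subunits, 3 elongation factors or relatives (EEF2, EEF1A2 and EIF5A2) and 13 regulators. All members present passed the filter on low values in each comparison. Because members are chosen by name, ribosomal proteins listed under an identifier only are not counted, and RPLP0, RPL3, RPS6, EEF1A1 and EIF5A are among the names not found here.

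The study asked how exposure to testosterone before birth affects the ovary. The animals were wild type and fell into 4 groups: 3 control and 3 testosterone fetuses at day 90 of gestation, and 4 control and 4 testosterone adults at year 2, whose libraries carry the numbers 4 to 7. Testosterone propionate in cottonseed oil was injected into the pregnant mothers 2 times a week from day 30 to day 90 of gestation, so the fetuses were sampled at the end of the exposure and the adults long after it. What the control mothers received is not stated in the labels, and neither is how sample numbers relate to mothers or litters, so each p-value speaks only of the spread among the samples at hand. Each library is RNA of a whole frozen ovary, in which fewer cells of a type and less RNA per cell cannot be told apart.

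Ribosomal proteins coat and stabilise the ribosomal RNAs of the small subunit, which reads the messenger RNA, and of the large subunit, which joins amino acids. Initiation factors bring the first transfer RNA, the messenger RNA cap and the subunits together, and elongation factors then carry the ribosome along the message. Messenger RNAs of ribosomal proteins and of many translation factors start with a pyrimidine tract that links their translation to the mTOR pathway, and growing cells such as granulosa cells of developing follicles make many ribosomes.

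The libraries held 22.6 to 33.4 M reads, recovered from the deposited normalized counts. For control 6 the first adult table holds 26.4 M reads and the second 33.4 M, and the deeper set was used when tables were joined. The fetal tissue carried markers of germ cells, with 6 markers summing to normalized counts of 11951 to 18589 in controls and 8966 to 13705 after testosterone. In adults the same markers summed to 424 to 1046 on the scale joined over all libraries. Control 6 and testosterone 4 and 7 stood apart from the other adults, with normalized counts of 94465, 110098 and 61432 for OXT, a hormone gene of the corpus luteum, against 22 to 80 in the other 5. Adult control 4 stood apart by smooth muscle markers, whose centred mean log2 level was 2.87 against at most 0.53 in the other adults.

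Ribosomal protein genes took 3.16% to 5.67% of all recovered reads in a library, and the translation factors and regulators a smaller share. In the 3 fetal controls the ribosomal protein share was 3.16%, 3.26% and 3.34%, and in the 3 testosterone fetuses it was 3.89%, 3.66% and 3.86%. The groups did not overlap, and the means were 3.26% ± 0.0888 and 3.80% ± 0.125 (SD, n = 3 each). In adults the shares were 3.81%, 5.60%, 3.84% and 5.28% in controls 4 to 7 and 4.44%, 5.26%, 5.67% and 3.72% after testosterone. The adult groups overlapped widely, with means of 4.63% ± 0.941 and 4.77% ± 0.867 (n = 4 each). Translation factors and regulators together took 1.22% ± 0.0133 in fetal controls, 1.25% ± 0.00718 in testosterone fetuses, 1.29% ± 0.179 in adult controls and 1.28% ± 0.140 in testosterone adults. As sums over the members these shares were not tested.

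**Figure D1:**
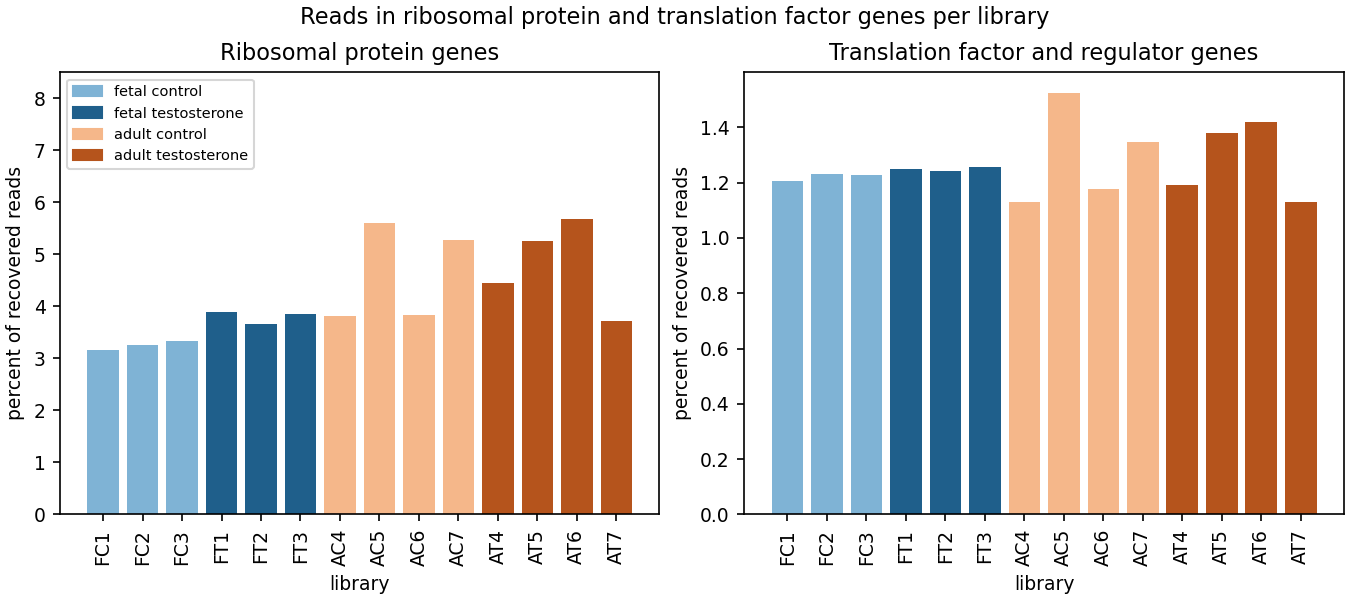
Percent of recovered reads (vertical axes, starting at 0) in the ribosomal protein genes (left) and in the translation factor and regulator genes (right), 1 bar per library; F is fetal, A adult, C control and T testosterone, followed by the sample number. The 3 testosterone fetuses sit between 3.66% and 3.89% for ribosomal proteins, above all fetal controls, while adult controls run from 3.81% to 5.60% and testosterone adults from 3.72% to 5.67%.

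The core ribosomal proteins, meaning the 31 of both subunits without the paralogs, were among the steadily measured genes. Their median SD within fetal groups was 0.073 on the log2 scale for the large and 0.074 for the small subunit, against 0.194 over all genes, and initiation factors had 0.091. In adults the medians were 0.274 and 0.271 against 0.511 over all genes. These medians were not set against genes of like abundance, and 3655 other fetal genes averaged only 10 to 100 counts. Core proteins also moved together over libraries: their median Pearson correlation with the mean of the core was 0.967 (large) and 0.952 (small) over 6 fetal libraries, and 0.794 and 0.709 over 8 adult libraries. For initiation factors the medians were 0.55 and 0.222. These correlations describe genes that share libraries and size factors, and the core mean contains the protein compared with it.

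RPS26 was the exception among small subunit proteins, with 131 to 221 normalized counts per fetal library where the lowest of the other 16 was at 5892. Its reads may be divided among near-identical copies of the gene, which the tables do not resolve. Reads of other ribosomal proteins may likewise be shared with processed copies.

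In the fetal ovary, every core ribosomal protein had a higher mean after testosterone, by a modest amount, while the median log2 change of the 52 translation factors and regulators was 0.05. The log2 change (testosterone minus control) of the 31 core proteins ran from 0.12 for RPSA to 0.36 for RPS26, with a median of 0.27, and the median over all genes tested was -0.02, with 46.6% of them positive. By limma, 0 of 87 members passed an adjusted p of 0.05, against 0.0121% of all genes passing higher and 0.00606% lower. At an unadjusted limma p under 0.05, 28 of the 31 core proteins were higher, where 5.26% of all genes were. DESeq2 on the recovered reads called 10 ribosomal proteins higher and none lower, where it called 1.09% of all genes higher, and edgeR called none, where it called 0.0182% of all genes higher. Among the 10 were RPL15, RPL23, RPL29, RPLP1, RPS14, RPS19, RPS20 and RPS21, and the authors' deposited table has an adjusted p under 0.05 for the same 10. The series text also names DESeq2, so the match is not a separate line of evidence. For 28 of the 31 core proteins all testosterone fetuses lay above all controls, against 8.88% of all genes. RPL10A and RPSA were among the 3 exceptions. Core proteins moved together over these libraries, so neither count of 28 stands for 28 separate observations. DESeq2 called 9 without control 3, but 0 and 1 without control 1 or 2 and 2, 4 and 3 without testosterone 1, 2 or 3. Under quantile normalization 16 of the 31 core proteins were higher without overlap, against 9.96% of all genes, and the median of the 35 ribosomal proteins was 0.13 in place of 0.26. With TMM, or with size factors without members, the count without overlap was 28, where 8.94% of all genes were higher for the latter.

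Among large subunit proteins, RPLP1, an acidic protein of the stalk that recruits elongation factors, had normalized counts of 44086, 44459 and 46291 in controls and 55828, 55633 and 54972 after testosterone. The gap between the groups was wider than either group's spread, and the log2 change was 0.30 (SE 0.07, limma adjusted p = 0.290, DESeq2 adjusted p = 0.00536). RPL15, a protein of the subunit's RNA core, had 10004, 10052 and 10120 in controls and 12168, 11864 and 12082 after testosterone. Here the controls nearly coincided and the testosterone fetuses were 1.20 times as high on average (log2 change 0.26, SE 0.07, limma adjusted p = 0.303). RPL29 had 15016, 15502 and 16613 against 20441, 18684 and 19638, a log2 change of 0.32 (SE 0.08). The largest change of this subunit was that of RPL23, which gave 25019, 25022 and 28222 against 31349, 32492 and 35032 (log2 change 0.34, SE 0.09, limma adjusted p = 0.293). RPL8 had the smallest, with 33152, 33904 and 34239 against 34854, 38953 and 41584 (log2 change 0.18). Testosterone 1 lay close to the controls there, and the groups still did not touch.

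Among small subunit proteins, RPS20 had 25587, 27924 and 27411 in controls and 34944, 32478 and 32804 after testosterone (log2 change 0.31, SE 0.08). The lowest testosterone fetus was above the highest control by more than the controls differed among themselves. RPS14 was among the most abundant members by count, with 53396, 53377 and 56908 against 65171, 63946 and 69323. RPSA, the protein also described as a laminin receptor, had the smallest log2 change of the subunit: its counts were 37711, 38887 and 43854 against 46374, 38019 and 46337. Testosterone 2 lay among the controls for this gene (log2 change 0.12, SE 0.11, limma adjusted p = 0.740).

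The order of libraries within a group was also shared. Control 3 was the highest control for 27 of the 31 core proteins, control 1 the lowest for 22, and testosterone 2 was the lowest testosterone fetus for 24. No control was the highest of the 6 libraries for any core protein, and no testosterone fetus was the lowest.

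The paralogs behaved unlike the core. RPL3L, a muscle-enriched relative of RPL3, had 93.0, 100.8 and 76.0 in controls and 58.8, 73.9 and 62.3 after testosterone, lower without overlap, as were 7.46% of all genes (log2 change -0.46, SE 0.23, limma adjusted p = 0.554). RPL10L, a relative of RPL10 known from male germ cells, was near the floor with 44.9, 19.6 and 9.0 against 30.4, 11.1 and 0.9. RPS27L had 1736, 1907 and 1683 against 2341, 1819 and 1759, and RPL26L1 a log2 change of 0.00. None of the 4 passed any test, and the first gene alone had groups that did not overlap.

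Initiation factors centred near no change, with a median log2 change of 0.06 over 36 genes (27 positive, 9 negative), and 0 passed by limma, DESeq2 or edgeR. At an unadjusted limma p under 0.05, 2 of the 36 were higher, EIF3H and EIF5B, a share near the 5.26% of all genes. The eIF3 complex, the scaffold that docks the small subunit, had mostly positive values: 11 of 12 subunits were above 0, with a median of 0.14, where 46.6% of all genes were above 0, and 3 were higher without overlap, as were 8.88% of all genes. EIF3H had 6944, 6772 and 7111 in controls and 8974, 7297 and 8728 after testosterone (log2 change 0.26, SE 0.09, limma adjusted p = 0.451). EIF3B, a core scaffold subunit, was the exception with 7458, 8197 and 8614 against 8226, 6752 and 7325 (log2 change -0.12). EIF5B, which joins the subunits, had 7196, 7105 and 6821 against 8558, 7907 and 7669, higher without overlap (log2 change 0.19, SE 0.08). The 5 subunits of eIF2B, the exchange factor that recharges eIF2, had a median of 0.01.

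Cap-binding factors and their controllers were mixed. EIF4E, the cap-binding protein, had 2061, 2144 and 1918 in controls and 2033, 1965 and 1634 after testosterone (log2 change -0.13, SE 0.11). Its repressor EIF4EBP1 had 691, 655 and 676 against 715, 760 and 746, higher without overlap but with a limma adjusted p of 0.675. A second repressor, EIF4EBP2, went the other way with 756, 682 and 780 against 452, 658 and 638 (log2 change -0.36, SE 0.16, limma adjusted p = 0.530). EIF4ENIF1, the transporter that takes EIF4E into the nucleus and is known for a role in oocytes, had 4508, 4379 and 5076 against 3705, 3710 and 4270. It was lower without overlap (log2 change -0.26, SE 0.10, limma adjusted p = 0.453) and was the only translation factor or regulator lower at an unadjusted p under 0.05, where 4.5% of all genes were lower.

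Elongation factors showed no common direction. EEF2, which moves the ribosome by one codon, had 76052, 73283 and 82262 in controls and 79550, 81823 and 88026 after testosterone (log2 change 0.11, SE 0.09, limma adjusted p = 0.696). EEF1A2, the tissue-restricted form of the factor that delivers transfer RNA, had 160, 151 and 30 against 79, 68 and 34. Its lowest library in either group carried the number 3, and EIF4E1B, the oocyte form of EIF4E, was highest in the same libraries, with 159, 89 and 549 against 77, 107 and 332.

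**Figure D2:**
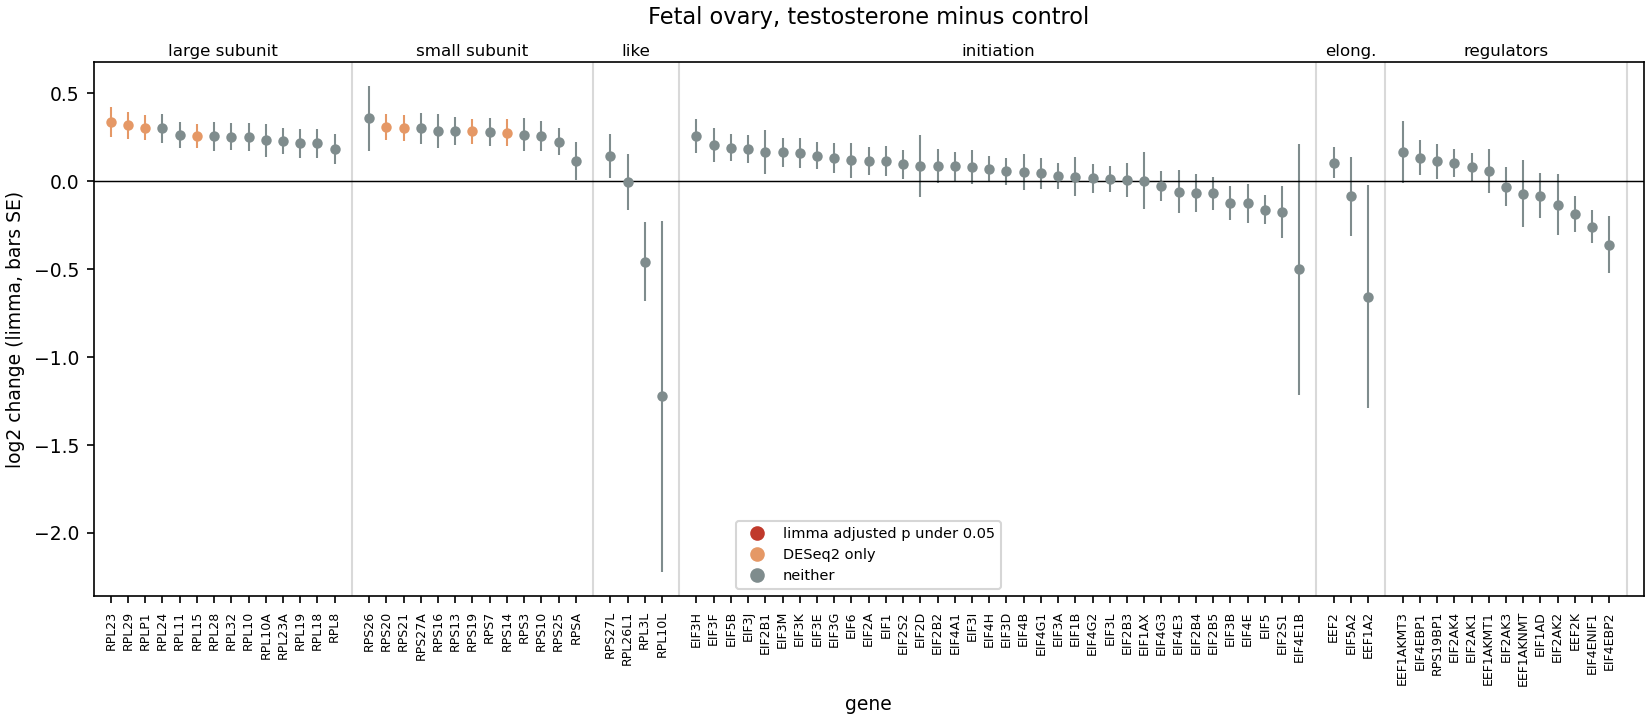
Log2 change of the members shown in the fetal ovary, testosterone minus control, with its SE from limma (vertical axis) and members ordered by size within role (horizontal axis). The 27 core ribosomal proteins shown, of 31, lie above 0, none passes limma, 8 of the 10 that DESeq2 called are shown in colour, and initiation factors scatter around 0.06.

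Ribosomal genes that the naming rule does not reach had values on the same side. RACK1, a small subunit scaffold, averaged 52259 ± 2413 in fetal controls and 61844 ± 2449 after testosterone (log2 change 0.24), and FAU had a log2 change of 0.29. Both were higher without overlap, as were 8.88% of all genes, and neither passed by limma or DESeq2. Changes were positive for 46.6% of all genes. The mitochondrial ribosome had 53 of 65 positive changes with a median of 0.10, and 0 called. Ribosome biogenesis genes, which build the subunits in the nucleolus, had 13 of 23 positive changes, a median of 0.06 and 0 called. Among 13 mTOR and MYC genes 0 passed: the kinase MTOR had 4597 ± 305 and 3686 ± 649 (log2 change -0.33) and its partner RICTOR -0.54, while MYC had 0.38.

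Markers of some cell types moved with the groups in these 6 libraries, and those of others did not. All 3 granulosa markers and all 6 smooth muscle markers had positive changes, with medians of 0.61 and 0.71, and all 6 germ cell markers had negative ones, with a median of -0.41. Summed normalized counts of the granulosa markers were 960 to 1424 in controls and 1339 to 1757 after testosterone, and those of the smooth muscle markers 31141 to 41962 and 45783 to 71948. The granulosa and germ cell sums thus overlapped between groups. So did those of endothelium markers (4639 to 6897 and 4691 to 8065) and theca markers (1434 to 2086 and 1479 to 1871). The oocyte marker sums overlapped too, at 5133 to 13826 in controls and 5271 to 9491 after testosterone, with medians of 5710 and 6590. No marker of these lists was at 0 throughout a group. Their part in the ribosomal protein difference was not tested. Abundance also went with the direction: 880 other genes with a mean of 5000 or more had a median log2 change of 0.04, with 58.5% positive. Quantile normalization, which forces all libraries to 1 distribution, lowered the median of the ribosomal proteins from 0.26 to 0.13 and the count of core proteins without overlap from 28 to 16. The DESeq2 count fell on leaving out any library, to 0 without control 1, 1 without control 2 and 9 without control 3. It was 2 without testosterone 1, 4 without testosterone 2 and 3 without testosterone 3. Each such fit also had fewer samples, and the cause of the fall was not tested.

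In the adult ovary, neither ribosomal proteins nor translation factors differed detectably between the groups. In the first adult table (controls 4 to 6 and testosterone 4 to 6), 0 of 85 members passed by limma, DESeq2 or edgeR and 0 had an unadjusted limma p under 0.05. Over all genes, limma called 0.00631% higher and 0% lower, and DESeq2 0.0129% in each direction. In the second (controls 4, 6 and 7 and testosterone 5 to 7), 0 of 86 passed by any of the tools and 0 had an unadjusted p under 0.05, where limma called 0.00623% of all genes higher and 0% lower, and DESeq2 0.0191% and 0.0127%. The tables share 4 libraries, so their values are not independent. For ribosomal proteins the median log2 change was 0.08 and 0.05 in these tables.

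When all 8 adults were joined, 0 of 85 members passed by limma, DESeq2 or edgeR, against 0.00635% of all genes called in each direction by limma and 0.013% higher and 0.0324% lower by DESeq2. The median log2 change was -0.01 for ribosomal proteins, of which 13 were positive and 20 negative, and 0.00 for translation factors and regulators, 26 of each sign, with 49.1% of all genes positive. RPL10A, a large subunit protein of the stalk beside the transfer RNA exit site, was the only member with an unadjusted p under 0.05, where 0.387% of all genes were lower and 0.419% higher by that measure. Its counts were 11298, 11983, 12089 and 10396 in controls and 7821, 8998, 10812 and 7068 after testosterone. Testosterone 6 alone lay within the range of the controls (log2 change -0.42, SE 0.18, limma unadjusted p = 0.0496, adjusted p = 0.99996). The log2 change was -0.37 in the first table and -0.34 in the second. The same gene had a log2 change of 0.23 in the fetuses, where its groups overlapped and it passed neither limma nor DESeq2.

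Other adult members had overlapping groups. EIF4EBP1 had 1833, 2452, 2925 and 1868 in controls and 2826, 1670, 2319 and 2404 after testosterone (log2 change 0.02, SE 0.23). EIF5, an initiation factor, had 2914, 3842, 4571 and 3723 against 5199, 3947, 3894 and 4839 (log2 change 0.26, SE 0.19, limma adjusted p = 0.99996). EIF2AK2, the interferon-induced kinase that halts initiation on sensing double-stranded RNA, had 497, 276, 389 and 185 against 502, 381, 319 and 785 (log2 change 0.57, SE 0.39). The highest and lowest of these values lay in single libraries, and no pattern by treatment was seen.

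Adult libraries differed more from each other than the groups did. The centred mean log2 level of the core ribosomal proteins was 0.00, 0.18, -0.26 and 0.09 in controls 4 to 7 and -0.05, 0.05, 0.22 and -0.23 in testosterone 4 to 7. Control 6 was the lowest control for 23 of 31 core proteins, testosterone 7 the lowest of its group for 23, and testosterone 6 the highest of its group for 24. Control 6 and testosterone 7 are 2 of the 3 libraries with high OXT, and testosterone 4 is the third. For EEF2 these 3 libraries had 69570 (control 6), 67200 (testosterone 4) and 60767 (testosterone 7), and the other libraries 85272 to 133718. EIF4G2, a scaffold for initiation without the cap-binding factor, had the opposite order, with 47676, 42926 and 40531 against 26709 to 32642. EIF4A1, the helicase that unwinds leaders, had 16420, 21049 and 19789 there and 18881 in control 5, within that range, while the other 4 had 9077 to 13033. The share of all genes that set these 3 libraries apart is not given here, and EIF4G2 was chosen after its values were seen. Mitochondrially encoded genes took 1.98%, 1.52% and 2.92% of reads in these 3 libraries and 0.69% to 0.95% in the other adults, and the part of either difference in the ribosomal protein values was not tested. With the luteal marker list as a covariate, the median adult change of the ribosomal proteins was 0.06.

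**Figure D3:**
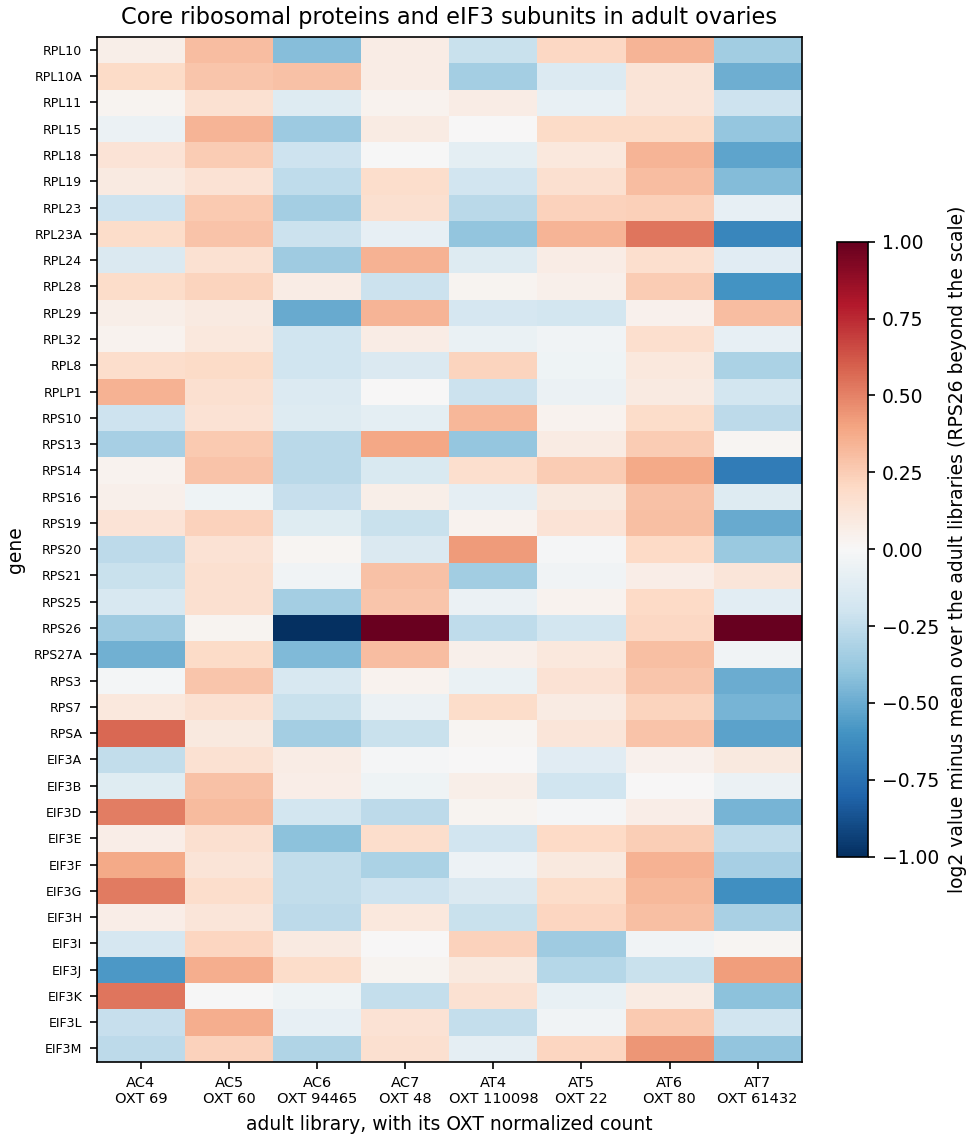
Log2 value minus the mean over the 8 adult libraries (colour) for 27 of the 31 core ribosomal proteins and the eIF3 subunits (rows), 1 column per library with its OXT normalized count below. Columns of testosterone 7 and control 6 are mostly blue and that of testosterone 6 mostly red, and both treatment groups hold both colours.

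Control 4 stood apart in other members. It had the highest EEF2 (133718), the highest EEF2K, the kinase that inhibits EEF2, with 4007 against 1112 to 2325 in the others, and the highest RPSA (68156). It also had the highest smooth muscle markers, and their part in these values was not tested.

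Between ages the difference was larger and covered most ribosomal proteins. Adult controls were compared with fetal controls on the joined scale of 15175 genes. By limma 44 of 85 members were higher in adults, against a background of 13.3%, and 5 were lower, against 14.9%. Of 33 ribosomal proteins 28 were higher and 0 lower, and of 52 translation factors and regulators 16 were higher and 5 lower. Without any 1 of the 3 fetal controls, 5 to 7 translation factors and regulators were higher and 2 to 3 lower. The 31 core proteins all had positive changes, from 0.52 to 1.18 with a median of 0.81, and 30 had adult controls above all fetal controls, against 19.9% of all genes. Median log2 changes were 0.25 for the translation factors and regulators and 0.03 for all genes. DESeq2 called 30 ribosomal proteins higher, with 20.8% of all genes, and edgeR 28, with 14.8%.

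This difference depended on the scaling in that quantile normalization removed most of it. Of 23 alternatives, TMM and size factors without members included, 22 left the count of ribosomal proteins called higher broadly the same. Under quantile normalization 1 ribosomal protein was called higher in place of 28 and 7 translation factors and regulators in place of 16, the ribosomal protein median fell to 0.02, and RPS3 changed sign from 0.86 to -0.06. Abundance went with it: 815 other genes with a mean of 5000 or more had a median log2 change of 0.28, and 27.4% of them were called higher. Fetal and adult libraries come from different tables, and age and the handling of each age's samples cannot be told apart.

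On the median-of-ratios scale, RPL29 had 13329, 13797 and 14857 in fetal controls and 33121, 33618, 22648 and 40182 in adult controls (log2 change 1.18, SE 0.19, limma adjusted p = 7.5e-04). All adults lay above all fetuses, and the adult spread was far wider. RPL11, a large subunit protein that also binds MDM2, had 21561, 22531 and 24031 against 46807, 50904, 42583 and 47006, 2.06 times as high on average and higher in all 4 adults (log2 change 1.04, SE 0.14, limma adjusted p = 1.7e-04). RPL8 had a log2 change of 1.01, and RPS21 and RPL32 of 0.96. The ribosomal proteins that did not pass were RPL23A, RPSA, RPS26, RPS27L and RPL26L1. RPL26L1 was the only negative one, with a log2 change of -0.21, and RPL23A and RPS27L passed by DESeq2 but not by edgeR.

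**Figure D4:**
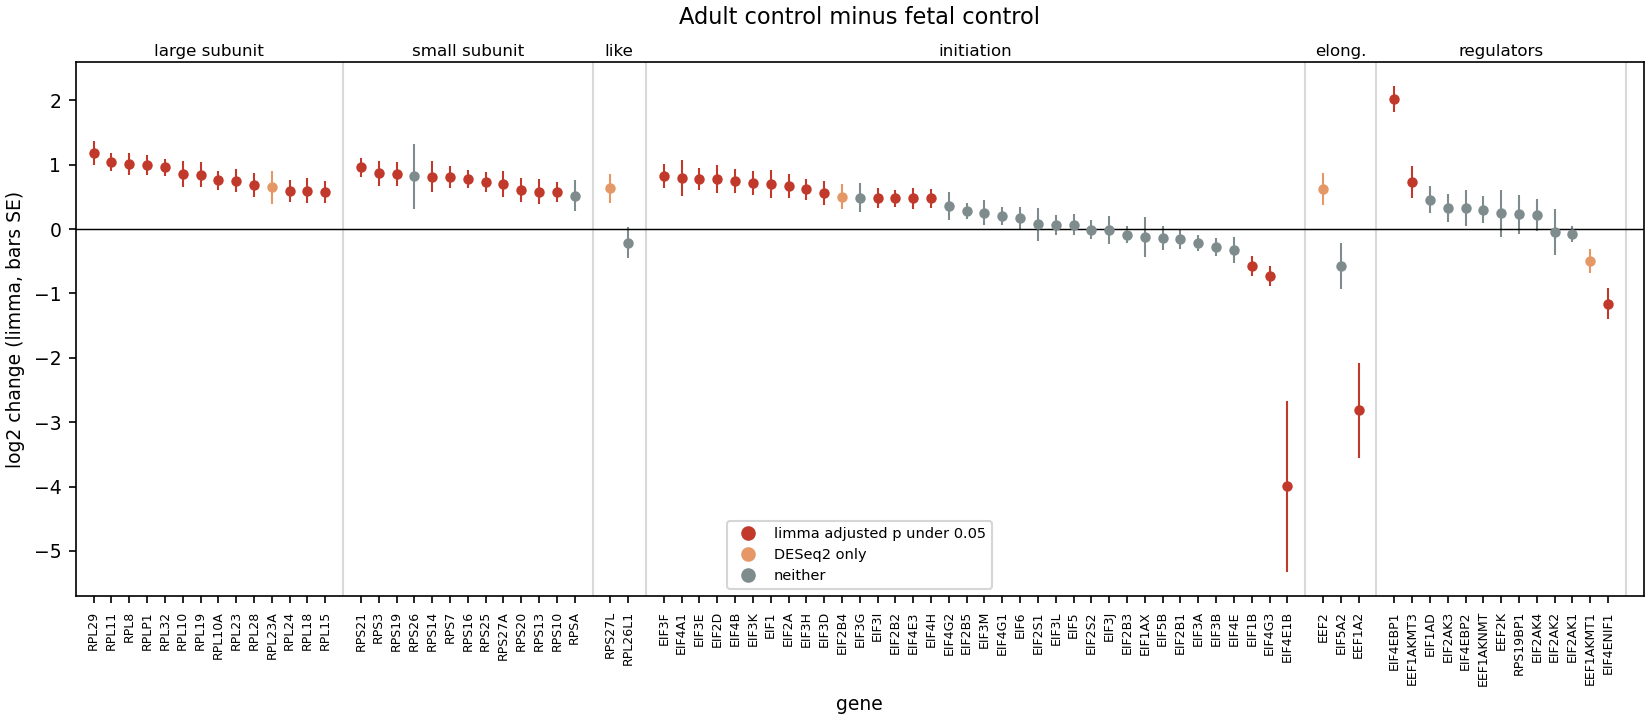
Log2 change of the members shown between adult and fetal controls, with its SE from limma (vertical axis) and members ordered by size within role (horizontal axis). The 27 core ribosomal proteins shown, of 31, lie between 0.52 and 1.18, EIF4EBP1 stands highest at 2.02, and EIF4E1B lowest at -4.00.

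Translation factors were split between ages. In eIF3, 6 of 12 subunits were higher in adult controls, among them EIF3F (log2 change 0.82, SE 0.19) and EIF3E (0.78, SE 0.17), and 0 were lower. EIF3E had 9291, 8558 and 9227 in fetal controls and 16250, 17202, 11795 and 17478 in adult controls, with the lowest adult being control 6. EIF4B, which helps the helicase EIF4A1, had a log2 change of 0.75 (SE 0.19) and was higher. EIF3B had a log2 change of -0.28 and did not pass. The result for EIF3E stayed the same in 22 of 23 alternatives. The count of translation factors and regulators called higher went as low as 5 over the alternatives, so these calls are not all firm.

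The largest increase of any member was that of EIF4EBP1, the repressor that holds EIF4E until mTOR phosphorylates it. It had 614, 583 and 604 in fetal controls and 2006, 2668, 3240 and 2043 in adult controls, 4.15 times as high on average (log2 change 2.02, SE 0.20, limma adjusted p = 2.2e-05). The testosterone libraries had 637, 669 and 668 in fetuses and 3114, 1800, 2522 and 2651 in adults, so each adult library exceeded each fetal one. Its log2 change stayed between 1.89 and 2.12 over the alternatives run, quantile normalization included. EIF4E itself had a log2 change of -0.32 (SE 0.20) and did not pass.

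Of the 5 members lower in adult controls, EIF4ENIF1 had 4001, 3897 and 4540 in fetal controls and 1665, 2010, 1379 and 2548 in adult controls (log2 change -1.16, SE 0.24, limma adjusted p = 0.00361). EIF4G3, a second scaffold of the cap complex, had 6879, 7807 and 6682 against 3324, 4317, 5226 and 4505 (log2 change -0.73, SE 0.16). Neither gene had overlapping groups, but the share of all genes lower without overlap is not given here. In the other direction, 19.9% of all genes were higher without overlap. EIF1B, a relative of the start site factor EIF1, had a log2 change of -0.57 (SE 0.16, limma adjusted p = 0.0160, and 0.0602 and 0.0627 without fetal control 2 or 3). EIF1 was higher at 0.70 (SE 0.22), and its calls without single libraries are not given here.

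The other 2 are germ cell or tissue-restricted forms. EIF4E1B had 141, 79 and 491 in fetal controls and 0, 22, 9 and 65 in adult controls (log2 change -4.00, SE 1.33, limma adjusted p = 0.0395, edgeR adjusted p = 0.0534). EEF1A2 had 142, 134 and 27 against 4, 9, 29 and 11, with fetal control 3 inside the adult range (log2 change -2.82, SE 0.74, limma adjusted p = 0.0131). The call for EIF4E1B was lost on leaving out any 1 fetal control, with adjusted p from 0.0621 to 0.154, and also without adult control 4 or 6 or testosterone fetus 1 or 2, which share the estimate of spread. For EEF1A2 it was lost without fetal control 1 (0.0669) or 2 (0.0688). The 6 germ cell markers were all lower in adult controls, with a median log2 change of -6.34, and the part of germ cells in these values was not tested.

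**Figure D5:**
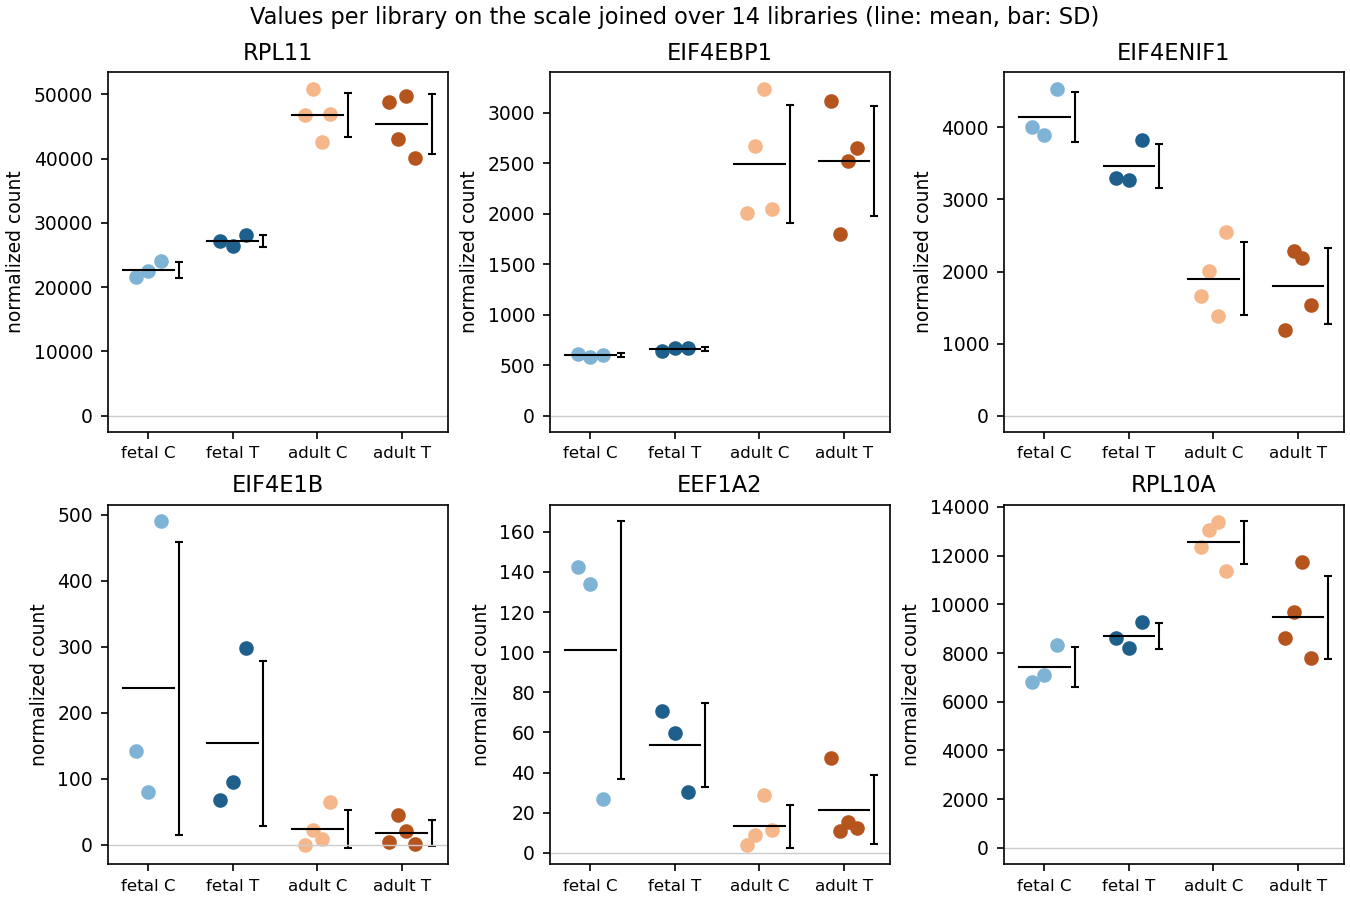
Normalized counts of 6 members in every library (points) on the scale joined over 14 libraries (vertical axes, from about 0), by group (horizontal axes, C control and T testosterone), with the mean (line) and SD (bar at the right). EIF4EBP1 and RPL11 are higher in every adult than in every fetus, EIF4ENIF1 is lower in every adult, and RPL10A is high in the 4 adult controls.

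Genes around the translation machinery did not all follow the ribosomal proteins. RACK1 and FAU were higher in adult controls (log2 change 0.77 and 0.96), and so was PABPC1, the poly(A)-binding protein whose message has the same leader type (0.76). The counts that follow stand against 13.3% of all genes higher and 14.9% lower by limma. Ribosome biogenesis genes had a median log2 change of 0.01, with 1 of 23 higher (BOP1, 0.65) and 0 lower. Of 13 mTOR and MYC genes, 3 were higher, among them MYC (1.90), and 4 were lower: MTOR (-0.60), RPTOR (-0.85), RICTOR (-1.74) and TSC1 (-0.76). The stress regulator ATF4 was higher (1.12), the release factor GSPT1 lower (-0.57), and of 65 mitochondrial ribosomal proteins 8 were higher, a share near the background, and 2 lower. ATF4, GSPT1 and PABPC1 are single genes of longer lists, and their values do not speak for those lists. Smooth muscle markers were higher in adult controls (6 of 6, median 2.71), and their part in the ribosomal protein values was not tested.

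The effect of testosterone was not shown to differ between ages for any member. In the test of the difference between the adult and the fetal effect, 0 of 85 members passed by limma, DESeq2 or edgeR, and 2 had an unadjusted limma p under 0.05, against 0.923% of all genes in the same direction. Over all genes limma called 0.00659% higher and 0% lower, and DESeq2 0.02% and 0.0466%. They were RPL10A (difference -0.65, SE 0.21, limma adjusted p = 0.99994) and RPLP1 (-0.49, SE 0.22). Over the 33 ribosomal proteins the median difference was -0.27, with 31 negative against 51.1% of all genes, and it was -0.08 under quantile normalization.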

How the data were processed

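Paired reads from 500 ng RNA per library were trimmed (Trimmomatic 0.36) and aligned (STAR 2.5.2b), per the submitters' processing notes. Which counter, build and annotation were used is not given in the sources used here. Each of the 3 tables the authors deposited holds 1 signal value per gene and library, a normalized count (reads over a size factor). They also hold the authors' own columns of log2 change and p-value. All signal values were whole multiples of 1 step per library within 0.01, so reads were recovered. Members and gene lists were chosen with earlier results of these data known.

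Each table was fitted with limma 3.58.1 (R 4.3.3, trended prior) on log2(value + 1) for genes averaging 10 or more, and p-values were adjusted by Benjamini-Hochberg over all genes, with a threshold of 0.05. Changes of low genes are understated on this scale. Recovered reads were also tested with DESeq2 1.42.0 and the quasi-likelihood test of edgeR 4.0.16. Tables were joined through recovered reads with median-of-ratios size factors, over 15773 genes for the 8 adult and 15175 for all 14 libraries. Each fit was tested on simulated data. Alternatives were quantile normalization, TMM, other filters, pseudocounts of 0.5 and 5, size factors without members, a replicate block, a luteal covariate, control 6 from the first adult table and leaving out each library. Genes named were up to 12 members per direction past the threshold, the 2 members of smallest p per role and a fixed set; others were chosen after their values were seen. No sequences or coordinates were used, so levels were not compared per length. Some ribosomal genes are not reported here by name or drawn, and counts and medians include them.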

Additional observations from a re-analysis of the deposited data

Results flagged for a closer look

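Among 86 groups of 4 adult libraries examined for the named members and the shares of reads, 3 had 1 library far from the others, and chance flags about 1 in 20. EEF1A2 in testosterone 4 had 42.8 normalized counts against 10.2 to 13.9 in the other testosterone adults. EIF3H in control 6 had 7164 against 9016 to 9351 in the other controls. EIF4E in control 4 had 955 against 1432 to 1523.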

How the results depend on the processing

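In the fetuses quantile normalization gave medians of 0.128 for ribosomal proteins and 0.0239 for translation factors, and 16 core proteins without overlap; DESeq2 called 10 ribosomal proteins, and 0 to 9 on leaving out each library. These leave-one-out DESeq2 counts and all counts without overlap were added after seeing the data. Without each library in turn the latter ran from 28 to 31, where 12.2% to 16.6% of all genes were higher without overlap. Leaving out a library can only keep or raise such counts, so these values are no check on them. The fetal translation factor median ran from 0.0263 to 0.0677 over libraries left out. Between ages quantile normalization gave 1 ribosomal protein and 7 translation factors called higher, medians of 0.0192 and 0.0597, and -0.0612 for RPS3. Translation factors called were 5 to 7 higher and 2 to 3 lower without each fetal control in turn, and their median was 0.18 without adult control 6. The difference between ages in the testosterone effect had a median of -0.0795 under quantile normalization. The cause of these shifts was not tested.

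Same-numbered fetal libraries had correlations of 0.13, 0.01 and 0.40 in their deviations and adult ones from -0.64 to 0.30, so numbers were not taken as pairs. With the replicate block limma called 0 members in any testosterone comparison, as it did without it, and the fetal ribosomal protein median was 0.26. No alternative called a member in the adult testosterone comparisons. Adult spread (median SD 0.511 in log2 over all genes) limits what could be detected there.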
